A study of Homo sapiens with 12 samples.

Results

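The MYC and MAX network is a family of transcription factors that share a basic helix-loop-helix leucine zipper, and it was described here by the mRNA levels of 10 genes: MYC, MYCN, MYCL, MAX, MNT, MXI1, MXD1, MXD3, MXD4 and MGA. The members were chosen by name, and all 10 were found among the 57820 genes of the deposited tables. Expression was measured by RNA sequencing in G401, a human malignant rhabdoid tumour line labelled as SMARCB1-null. SMARCB1 is a core part of SWI/SNF, a group of chromatin remodelling complexes. All 4 groups carried the SMARCB1 loss and a doxycycline-induced gene, had 3 replicates each, and were sampled after 24 h of treatment: GFP cells with the solvent DMSO, GFP cells with dBRD9-A, SMARCB1 cells with DMSO, and SMARCB1 cells with dBRD9-A. dBRD9-A is a small molecule that brings about degradation of BRD9, a bromodomain subunit of the non-canonical SWI/SNF complex, and GFP is a fluorescent protein induced as the control. The sources used here do not say whether the line was 1 clone, how long doxycycline was given, or whether replicates were separate cultures, so p-values measure the spread between these samples only, which may be technical.

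MYC, MYCN and MYCL bind DNA as dimers with MAX, mostly at the E-box motif CACGTG, and activate genes of growth and ribosome production. The MXD proteins (MXD1, MXI1, MXD3 and MXD4), MNT and MGA also bind MAX at such sites and recruit repressors, SIN3 and histone deacetylases for the MXD proteins and MNT and a Polycomb-type complex for MGA, so they oppose MYC for the same partner and the same sites. MXD genes other than MXD3 are known for their rise when cells stop dividing and differentiate, while MXD3 is known for its expression in dividing cells. SMARCB1 has been reported to bind MYC and to restrain its occupancy of chromatin, which makes the network of interest in rhabdoid tumours.

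The promoter windows of the members were searched for the E-box, on both strands of the 250 bases before and the 50 bases after each start in RefSeq (GRCh38.p14). It occurred in the windows of 2 of the 9 members that had one, MXD4 and MNT, whose mRNAs moved in opposite directions when SMARCB1 was present. Counted by window, 2 of the 14 windows of members held the motif (14.3%). Over 35116 windows 7.26% held it, and over the 15520 windows of genes tested here 9.47% did. The stretches that lie before the annotated exons are printed with the E-box in capitals, for MXD4 at chr4:2262295-2262359 and for MNT at chr17:2401161-2401310, both on the minus strand. They are followed by MXD3 at chr5:177312853-177313002 on the minus strand and MXD1 at chr2:69914859-69915008 on the plus strand, the other pair of antagonists whose mRNA changed in opposite directions and whose windows held no E-box.
MXD4: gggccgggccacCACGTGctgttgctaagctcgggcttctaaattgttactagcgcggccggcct
MNT: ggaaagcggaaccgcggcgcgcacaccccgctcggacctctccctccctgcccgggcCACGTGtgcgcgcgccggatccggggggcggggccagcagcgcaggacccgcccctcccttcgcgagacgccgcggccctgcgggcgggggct
MXD3: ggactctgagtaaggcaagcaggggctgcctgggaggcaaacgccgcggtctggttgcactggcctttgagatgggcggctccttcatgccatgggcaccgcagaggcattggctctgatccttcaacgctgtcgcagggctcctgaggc
MXD1: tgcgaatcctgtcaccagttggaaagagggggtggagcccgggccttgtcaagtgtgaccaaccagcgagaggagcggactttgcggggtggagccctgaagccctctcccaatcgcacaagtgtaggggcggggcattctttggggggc
The first base of the motif lay 238 bases before the start of MXD4 and 193 bases before that of MNT. The MNT stretch is the richest in G and C, at 80.7%, against 63.1% for MXD4, 63.3% for MXD3 and 62.7% for MXD1. A match of letters is a description of the window, and binding was not measured in these data.

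Libraries held 34.97 to 58.54 megacounts (1e6 counts) assigned to genes. SMARCB1 checked the labels: it had 0 to 2 counts in every GFP library, and averaged 1880 ± 59.4 counts per megacount (CPM) in SMARCB1 cells with DMSO and 1310 ± 27 with dBRD9-A (SD, n = 3). The degrader acts on the BRD9 protein, which was not measured in these data, and BRD9 mRNA averaged 38.3 to 47.5 CPM over the groups. VIM, KRT8 and KRT18, which rhabdoid cells express, had group means of 1270 to 2540 CPM. Of markers of other cell types, PTPRC and CD3E had 0 counts, and the endothelial and epithelial lists summed to at most 1.28 CPM per library. In the leukocyte list 1 of 4 genes passed 3 counts in any library, and its sum was 163 to 199 CPM in GFP libraries and 57.4 to 67.2 CPM in SMARCB1 libraries, nearly all from CD68. In the fibroblast list 3 of 4 genes did, with DCN at 0 or 1 count, and its sum was 1150 to 1200, 859 to 868, 982 to 995 and 804 to 867 CPM in GFP cells with DMSO and dBRD9-A and SMARCB1 cells with DMSO and dBRD9-A. Their part in the results on the network was not tested.

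In SMARCB1-deficient cells the network was mostly MYC. Levels per length, in CPM per kilobase (kb) of annotated exon, averaged 63.1 ± 0.52 for MYC in GFP cells with DMSO (SD, n = 3). MGA, at 6.49 ± 0.111 CPM per kb, and MAX, at 6.33 ± 0.366, came next and overlapped over their replicates. MXD4 followed at 5.39 ± 0.11 CPM per kb, MXI1 at 2.8 ± 0.18, MXD1 at 1.4 ± 0.0435 and MYCL at 1.17 ± 0.126, each apart from its neighbours in the order. MNT, at 0.858 ± 0.0969 CPM per kb, and MXD3, at 0.842 ± 0.0899, overlapped at the lower end. MYCN, the family member known from neuroblastoma, had 0 counts in 11 libraries and 1 count in 1 library of GFP cells with dBRD9-A, under the floor of 3 counts. It did not pass the filter on low counts, so that 9 of the 10 members were tested. The order depends on the length used: per kb of the longest coding transcript MXD4 was second, at 9.38 ± 0.192 CPM per kb, and overlapped MAX at 8.89 ± 0.514.

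**Figure D1:**
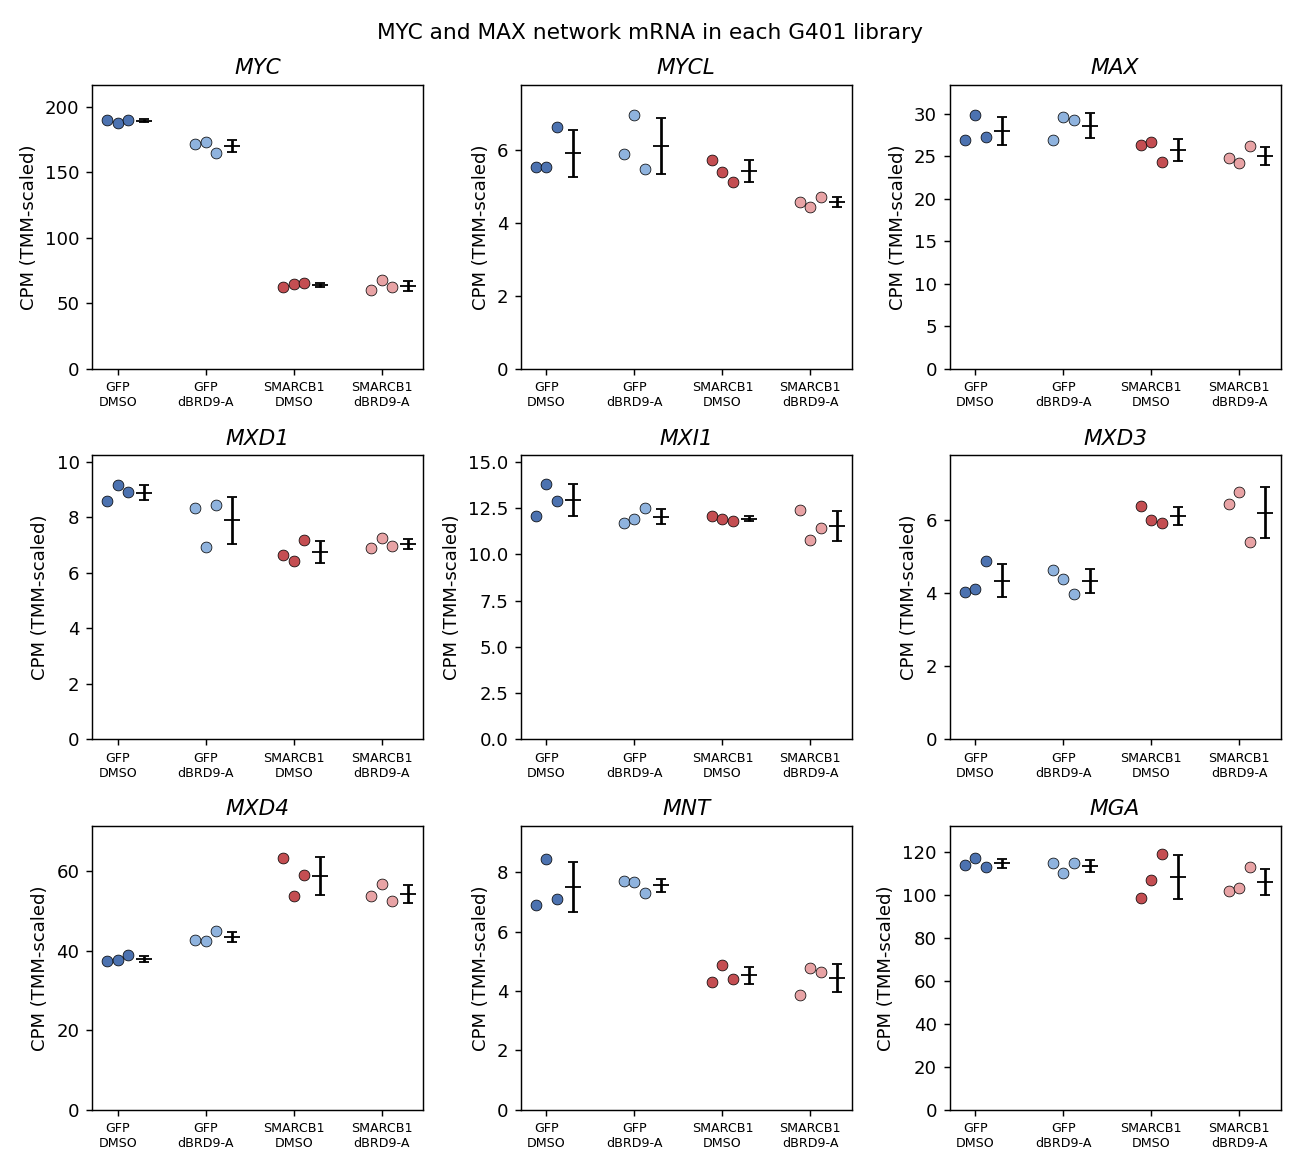
TMM-scaled CPM of the 9 tested genes in each of the 12 libraries, by group (3 points a group; the bar gives the mean and SD). MYC falls from 188 to 190 CPM in GFP cells with DMSO to 62.5 to 65.4 CPM in SMARCB1 cells with DMSO, and MXD4 goes from 37.4 to 38.9 CPM to 53.9 to 63.5 CPM.

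To ask what SMARCB1 does to the network, SMARCB1 cells were compared with GFP cells in DMSO. MYC mRNA fell 2.95-fold, MNT 1.65-fold and MXD1 1.31-fold, while MXD4 rose 1.55-fold and MXD3 1.4-fold. MAX, MXI1, MYCL and MGA did not pass the test. Of the 9 members 2 rose and 3 fell (edgeR's quasi-likelihood test, threshold 0.05 on the adjusted p), and on spike-in scaling 2 rose and 2 fell. The 4 that did not pass were lower by 0.08 to 0.13 in log2 units, and on spike-in scaling had values of 0.04 to 0.09, again with no call. Over all 15750 genes tested 33.5% were higher and 31.6% lower in this comparison, 65.0% in all, so a call as such is common here. On spike-in scaling 6831 of these genes were higher and 2581 lower. The replicates of the 2 groups did not overlap for 7 of the 9 members, and for 68.7% of all genes, so separation is common too. The median log2 fold change was -0.12 over the 9 members and about 0 over all genes (-0.005). In these bulk libraries fewer cells of a type and less RNA per cell cannot be told apart.

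MYC (ENSG00000136997.10), the activator at the centre of the network, had 190, 188 and 190 CPM in the replicates of GFP cells with DMSO and 62.5, 64.8 and 65.4 CPM in those of SMARCB1 cells with DMSO. Every SMARCB1 library lay far below every GFP library. The fall was -1.56 on the log2 scale (SE 0.036, 95% interval -1.64 to -1.48, adjusted p = 1.21e-16 by edgeR's quasi-likelihood test, n = 3 against 3). By size it was the 598th largest fall, within the largest 3.8% of the genes tested when ranked by fall. MYC has no gene that overlaps its exons among those tested, and its expected counts were whole numbers in every library.

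MYCL, a paralogue of MYC first known from small-cell lung cancer, had 5.54, 5.53 and 6.64 CPM in GFP cells with DMSO and 5.73, 5.39 and 5.13 CPM in SMARCB1 cells with DMSO. The groups overlapped, and the log2 difference of -0.13 had a 95% interval from -0.34 to 0.08 (adjusted p = 0.25, edgeR). MYCL was therefore not shown to change, and MYCN was not detected above the floor.

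MAX, the partner that the other members share, had 26.9, 29.9 and 27.3 CPM in GFP cells and 26.4, 26.7 and 24.3 CPM in SMARCB1 cells, both with DMSO. The groups did not overlap, but the gap between the nearest replicates was small, and the log2 difference was -0.12 (95% interval -0.24 to -0.01, adjusted p = 0.0556, edgeR). In the same edgeR test it passed the threshold without GFP DMSO replicate 1 (-0.15, adjusted p = 0.0398), SMARCB1 DMSO replicate 2 (-0.15, adjusted p = 0.0446), GFP dBRD9-A replicate 1 (adjusted p = 0.0478) or SMARCB1 dBRD9-A replicate 2 (adjusted p = 0.0487), and without the low-count filter (adjusted p = 0.0265). On spike-in scaling the value was 0.05 (adjusted p = 0.628, edgeR), so neither the call nor the direction of MAX is settled.

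Among the antagonists, MXD4 (ENSG00000123933.10) had 37.4, 37.8 and 38.9 CPM in GFP cells with DMSO and 63.5, 53.9 and 59.1 CPM in SMARCB1 cells with DMSO. It was higher in all 3 SMARCB1 libraries, with more spread among them than among the GFP libraries. The rise was 0.63 in log2 units (SE 0.049, adjusted p = 3.76e-09, edgeR). Its nearest coding neighbours on the chromosome, HAUS3 (0.19, adjusted p = 0.00209, edgeR) and ZFYVE28 (0.28, adjusted p = 0.00109, edgeR), also rose, by less.

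MXD3 (ENSG00000213347.6), the MXD member known for its expression in dividing cells, had 4.03, 4.12 and 4.87 CPM in GFP cells with DMSO and 6.39, 6 and 5.92 CPM in SMARCB1 cells with DMSO. All SMARCB1 libraries were above all GFP libraries, at a level low enough that the replicate SDs were 0.463 and 0.251 CPM. The log2 fold change was 0.48 (SE 0.101, adjusted p = 0.000417, edgeR). In GENCODE release 29 MXD3 shares exon sequence with RAB24 on its own strand, and its expected counts were not whole in 7 of the 12 libraries, by at most 0.349% of the count. RAB24 went the other way (-0.23, adjusted p = 0.0139, edgeR).

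MNT (ENSG00000070444.10), a widely expressed antagonist, had 6.91, 8.46 and 7.1 CPM in GFP cells with DMSO and 4.29, 4.86 and 4.42 CPM in SMARCB1 cells with DMSO. It was lower in all 3 SMARCB1 libraries. The fall was -0.72 in log2 units (SE 0.096, adjusted p = 3.5e-06, edgeR), and its neighbours SGSM2 (-0.32) and METTL16 (-0.4) fell too, with adjusted p of 3.59e-07 and 2.17e-09.

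MXD1 (ENSG00000059728.6), the founding MXD gene, had 8.61, 9.16 and 8.9 CPM in GFP cells with DMSO and 6.65, 6.43 and 7.19 CPM in SMARCB1 cells with DMSO, again without overlap. The log2 fold change was -0.39 (SE 0.077, adjusted p = 0.000266, edgeR). SNRNP27, which shares exon sequence with MXD1 on the same strand in GENCODE release 29, rose (0.34, adjusted p = 4.24e-06, edgeR). The fall of MXD1 was not called after scaling to the spike-in RNAs (-0.22, adjusted p = 0.0732, edgeR).

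MXI1 had 12.1, 13.8 and 12.9 CPM in GFP cells with DMSO and 12.1, 11.9 and 11.8 CPM in SMARCB1 cells with DMSO, and its log2 difference of -0.11 did not pass (95% interval -0.25 to 0.02, adjusted p = 0.122, edgeR). MGA had 114, 117 and 113 CPM against 98.5, 107 and 119 CPM. SMARCB1 DMSO replicate 3 had the highest MGA value of the 6 libraries and the other pair the lowest, and the log2 difference was -0.08 (95% interval -0.19 to 0.03, adjusted p = 0.201, edgeR). Without that replicate it was -0.16 (adjusted p = 0.00536, edgeR), and without the low-count filter -0.09 (adjusted p = 0.0292, edgeR), so the absence of a call for MGA depends on these choices. From the same libraries, the low counts of MYCL, MNT, MXD1 and MXD3 gave SEs of 0.077 to 0.101, against 0.036 for MYC.

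With SMARCB1 present the order of levels per kb of annotated exon differed below MYC, while per kb of the longest coding transcript it was the same as in GFP cells with DMSO. In SMARCB1 cells with DMSO, MYC had 21.4 ± 0.515 CPM per kb and was followed by MXD4 at 8.34 ± 0.682, which was apart from MGA (6.13 ± 0.598) and MAX (5.82 ± 0.297). MXD3, at 1.18 ± 0.0487 CPM per kb, then stood above MYCL (1.07 ± 0.06) and MXD1 (1.06 ± 0.0618), and MNT was lowest of the tested members at 0.519 ± 0.0344.

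**Figure D2:**
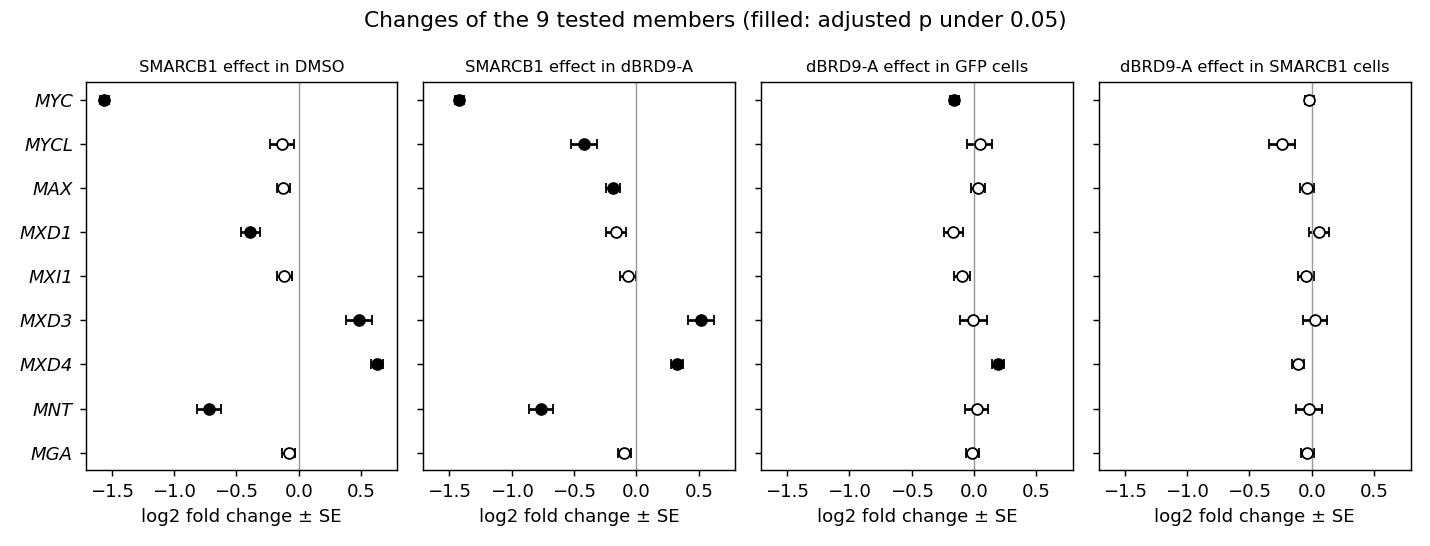
Log2 fold changes (x axis, with SE) of the 9 tested genes in 4 comparisons on TMM-scaled libraries, with filled points for adjusted p under 0.05 (edgeR). The SMARCB1 panels hold 5 and 6 calls and the dBRD9-A panels 2 and 0. Scaled to spike-in RNAs, MYC with dBRD9-A in GFP cells goes from -0.16 to 0.2 and MXD4 under SMARCB1 in dBRD9-A from 0.32 to -0.01.

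To ask how the network differs with the degrader in cells without SMARCB1, dBRD9-A was compared with DMSO in GFP cells. MYC was 1.12-fold lower and MXD4 1.14-fold higher, and the other 7 members tested did not pass. That is 1 member higher, where 7.43% of all genes were higher, and 1 lower, where 8.47% were lower (15.9% in all). The median log2 fold change was -0.01 over the 9 members and 0 over all genes.

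With dBRD9-A, GFP cells had 172, 173 and 165 CPM of MYC, below the 188 to 190 CPM of the DMSO replicates. The difference was small but larger than the replicate spread. It came to -0.16 on the log2 scale (adjusted p = 0.00407, edgeR; SE 0.034) with the main scaling and 0.2 (adjusted p = 0.00459, edgeR) with spike-in scaling. Its direction therefore depends on what is held constant, the bulk of the genes or the spike-in RNAs. Spike-in scaling moves all genes of a comparison together, and it moved their median by 0.36. MYC lay below the median under both scalings, which follows from this common shift and is no second support.

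MXD4 had 42.8, 42.6 and 45 CPM with dBRD9-A against 37.4 to 38.9 CPM with DMSO, and no replicate overlapped. The log2 fold change was 0.19 (SE 0.051, adjusted p = 0.0157, edgeR), and 0.55 on spike-in scaling. Without GFP DMSO replicate 1 it was 0.18 (adjusted p = 0.0671, edgeR) and without GFP dBRD9-A replicate 3 it was 0.17 (adjusted p = 0.0792, edgeR), so this call needs both libraries. This comparison and that of SMARCB1 in DMSO share the GFP DMSO libraries, so the 2 changes of MXD4 are not independent of each other.

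Of the rest, MXD1 came nearest with 8.35, 6.93 and 8.44 CPM against 8.61 to 9.16 CPM (log2 difference -0.17, 95% interval -0.33 to -0.004, adjusted p = 0.169, edgeR). MYCL had 5.89, 6.95 and 5.48 CPM, MAX 26.9, 29.6 and 29.3 CPM, and MNT 7.69, 7.66 and 7.31 CPM. MXI1 had 11.7, 11.9 and 12.5 CPM, MXD3 4.63, 4.37 and 3.98 CPM, and MGA 115, 110 and 115 CPM. All 6 overlapped their DMSO replicates. The other 3 of the 9 members did not, and neither did 34.0% of all genes. Their log2 differences ran from -0.1 (MXI1) to 0.05 (MYCL), and the widest intervals were those of MXD3 (-0.23 to 0.22) and MYCL (-0.16 to 0.25). On spike-in scaling 8 of the 9 members were higher and none lower, as were 11083 of all genes against 227 lower.

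In SMARCB1 cells, dBRD9-A against DMSO gave no call among the 9 members, where 1.93% of all genes were called (edgeR), and 2 members, MYCL and MXD4, had an unadjusted p under 0.05. DESeq2's Wald test also called 0 members. MYC had 60.3, 67.5 and 62.4 CPM with dBRD9-A against 62.5 to 65.4 CPM with DMSO, a log2 difference of -0.02 with a 95% interval from -0.1 to 0.06 (adjusted p = 0.913, edgeR). MYCL had 4.57, 4.44 and 4.72 CPM, below the 5.13 to 5.73 CPM of DMSO, with a log2 difference of -0.24 (95% interval -0.46 to -0.02, adjusted p = 0.328, edgeR). MXD4 had 53.7, 56.9 and 52.5 CPM, within or just under the 53.9 to 63.5 CPM of DMSO, with a log2 difference of -0.11 (95% interval -0.22 to -0.01, adjusted p = 0.327, edgeR). Spike-in scaling called both lower, MYCL at -0.38 and MXD4 at -0.25. The remaining members had log2 differences from -0.05 (MXI1) to 0.06 (MXD1), and each overlapped its DMSO replicates. MYCL was the only 1 of the 9 members without overlap, where 16.9% of all genes had none. Their values with dBRD9-A were 24.8, 24.2 and 26.2 CPM for MAX, 3.88, 4.76 and 4.65 CPM for MNT, and 12.4, 10.8 and 11.4 CPM for MXI1. MXD1 had 6.91, 7.25 and 6.96 CPM, MXD3 6.44, 6.75 and 5.4 CPM, and MGA 102, 103 and 113 CPM.

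The effect of SMARCB1 was then taken between the cells given dBRD9-A. MYC was 2.67-fold lower, MNT 1.7-fold, MYCL 1.34-fold and MAX 1.14-fold, while MXD3 was 1.43-fold and MXD4 1.25-fold higher. Of the 9 members 2 rose and 4 fell, where 33.0% and 30.4% of all genes did (63.3% in all). On spike-in scaling none rose and 7 fell, where 2129 of all 15750 genes rose and 9046 fell. The log2 fold change of MYC was -1.42 (SE 0.036, adjusted p = 5.56e-16, edgeR) and that of MNT -0.77 (SE 0.098, adjusted p = 2.46e-06, edgeR). MYCL (-0.42, SE 0.103, adjusted p = 0.00183) and MAX (-0.19, SE 0.055, adjusted p = 0.00587) passed the edgeR test here and not in DMSO, but the difference between the 2 settings was not itself called for either (interaction -0.28 for MYCL, adjusted p = 0.346, and -0.07 for MAX, adjusted p = 0.732, edgeR). MXD3 rose by 0.52 (SE 0.104, adjusted p = 0.000316, edgeR) on the log2 scale, or by 0.19 with no call on spike-in scaling. MXD4 rose by 0.32 (SE 0.05, adjusted p = 1.96e-05, edgeR), and its spike-in value was -0.01 (adjusted p = 0.951, edgeR). MXD1 (-0.17, adjusted p = 0.0809), MGA (-0.1, adjusted p = 0.119) and MXI1 (-0.06, adjusted p = 0.409) did not pass in edgeR on the main scaling, but all 3 were called lower on spike-in scaling (-0.5, -0.43 and -0.39). Without GFP dBRD9-A replicate 2, MXD1 was called at -0.26 (adjusted p = 0.00864, edgeR), and MGA without SMARCB1 dBRD9-A replicate 3 at -0.16 (adjusted p = 0.0235, edgeR) or without SMARCB1 DMSO replicate 3 at -0.1 (adjusted p = 0.0358, edgeR). MGA was also called without the low-count filter (adjusted p = 0.0193) and with only the groups compared (adjusted p = 0.0342, edgeR). SMARCB1 mRNA itself was lower with dBRD9-A than with DMSO (log2 fold change -0.52, adjusted p = 4.95e-08, edgeR), and the part of this in the results was not tested.

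Whether SMARCB1 alters the response to dBRD9-A was tested as an interaction. MXD4 was called, as 1 of 9 members, where 3.80% of all genes were called and 1.65% in the same direction. Its response to dBRD9-A went from 0.19 in GFP cells to -0.11 in SMARCB1 cells on the log2 scale, a difference of -0.3 (SE 0.07, 95% interval -0.45 to -0.16, adjusted p = 0.0193, edgeR). The call was lost without GFP DMSO replicate 1 (-0.295, adjusted p = 0.0581, edgeR) or GFP dBRD9-A replicate 3 (-0.28, adjusted p = 0.0655, edgeR). MYC had an interaction of 0.14 (SE 0.051, 95% interval 0.03 to 0.25, adjusted p = 0.166, edgeR), which turned to -0.36 on spike-in scaling. The difference between the response of MYC in the 2 cell states was therefore not shown on the main scaling.

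Ratios within a library do not depend on how libraries are scaled, but their size depends on the gene length used, here that of annotated exons. Per kb of the longest coding transcript, MYC and MXD4 averaged 80 and 9.38 CPM in GFP cells with DMSO. In SMARCB1 cells with DMSO they averaged 27.2 and 14.5 CPM on that length. In the replicates of GFP cells with DMSO, MYC stood at 12, 11.7 and 11.5 times MXD4 per kb of annotated exon, and in SMARCB1 cells with DMSO at 2.32, 2.83 and 2.6 times. With dBRD9-A the ratio was 9.44, 9.53 and 8.63 in GFP cells, below all DMSO replicates, and 2.64, 2.79 and 2.8 in SMARCB1 cells, which overlapped those of DMSO. Exact two-sided permutation tests gave p = 0.1 for both SMARCB1 comparisons and for dBRD9-A in GFP cells. That is the smallest value that 3 against 3 allows. In each of these comparisons MYC was lower and MXD4 higher, without overlap of replicates. Their ratio therefore had to separate, and its p is no second support. For dBRD9-A in SMARCB1 cells the exact permutation test of this ratio gave p = 0.5. The ratio of MYC to MAX per kb went from 9.99 ± 0.631 in GFP cells to 3.69 ± 0.257 in SMARCB1 cells with DMSO (SD, n = 3), and with dBRD9-A in GFP cells it was 8.78 ± 0.573 and overlapped DMSO.

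The make-up of the network also differed. MYC held 71.4 ± 0.751% of the summed CPM per kb of annotated exon of all 10 members in GFP cells with DMSO and 44.5 ± 0.917% in SMARCB1 cells with DMSO, and MXD4 held 6.1 ± 0.0987% and 17.3 ± 1.4% (SD, n = 3). The sum itself went from 88.4 ± 0.458 to 48.1 ± 0.586 CPM per kb. Shares are parts of a whole, so a fall of MYC raises those of the others. MGA, which was not called, went from 7.34 ± 0.13% to 12.8 ± 1.1%, and MXD4 mRNA rose 1.55-fold. With dBRD9-A the share of MYC was 68.7 ± 0.839% in GFP cells, apart from DMSO, and 45.2 ± 1.4% in SMARCB1 cells, which overlapped DMSO. Of the summed level of the 4 MXD genes per kb, MXD4 made up 51.7 ± 1.05% in GFP cells with DMSO, 56.7 ± 0.608% with dBRD9-A, and 63.2 ± 1.56% and 61.5 ± 1.26% in SMARCB1 cells with DMSO and dBRD9-A. Over 20 such comparisons of ratios and shares no exact permutation p was below 0.1, the floor of the design.

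**Figure D3:**
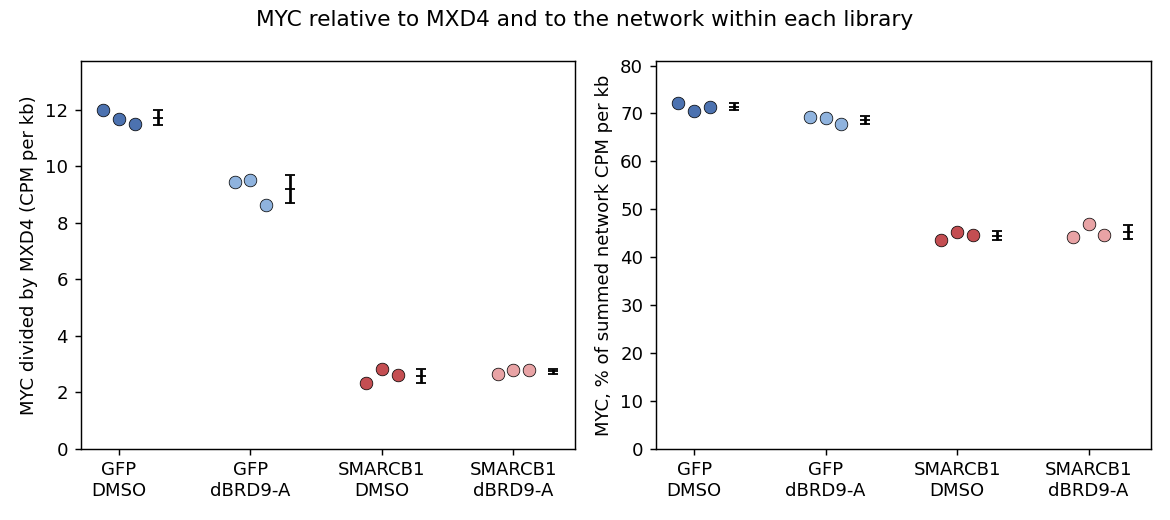
MYC divided by MXD4 (left, CPM per kb) and the share of MYC in the summed CPM per kb of the 10 genes (right, percent) in each library, with the mean and SD of each group. The ratio is 11.5 to 12 in GFP cells with DMSO, 8.63 to 9.53 with dBRD9-A, and 2.32 to 2.83 in the 6 SMARCB1 libraries.

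The changes of MYC and MXD4 between GFP and SMARCB1 cells were shared with many genes. Of 12585 genes with a mean of at least 50 counts, 1572 had a Pearson r of at least 0.95 with MYC over log2 CPM in the 12 libraries. The 3 most alike were PROCR, the receptor of protein C on endothelium, NMNAT1, an enzyme of NAD synthesis, and WDR3, a factor of ribosome assembly, each at r = 0.999. PROCR went from 837 to 159 CPM between GFP and SMARCB1 cells with DMSO and was 696 CPM in GFP cells with dBRD9-A. For MXD4 168 genes had r of at least 0.95, led by ATG2A, a protein of autophagy (r = 0.99), NLRP1, a sensor of the inflammasome (0.979), and SECISBP2L (0.978). Such counts also depend on the size of a change against the replicate spread. MXD4 changed less than MYC and had an SD of 4.81 CPM in SMARCB1 cells with DMSO, against 1.54 for MYC. The counts therefore do not show which pattern is rarer. The points of each r are the same 12 libraries, 6 of GFP and 6 of SMARCB1 cells, and r within a cell state was not computed.

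The arm of the network that responds to glucose uses MLX in place of MAX. MLX rose with SMARCB1 in DMSO, from 43.4 to 49.3 CPM (log2 fold change 0.18, SE 0.035, adjusted p = 0.00019, edgeR), and in dBRD9-A by 0.22, where spike-in scaling gave -0.11. Its partner MLXIP went from 19.8 to 18.4 CPM in DMSO and did not pass (-0.1, adjusted p = 0.0945, edgeR), and MLXIPL was too low to test.

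Genes that MYC is known to activate were read from lists chosen with earlier results of these data known, so their counts are descriptions. Of 57 genes of a target list rich in nucleolar and ribosome assembly factors, 45 fell and 6 rose with SMARCB1 in DMSO, where 31.6% and 33.5% of all genes did, and the median log2 fold change was -0.33 against about 0 over all genes (-0.005). On spike-in scaling 31 fell and 8 rose, with a median of -0.17. Over all 15750 genes this scaling called 2581 lower and 6831 higher, with a median of 0.17. The largest falls among the genes to be named were DUSP2, a phosphatase of MAP kinases, from 14.1 to 5.4 CPM (-1.39), and PRMT3, an arginine methyltransferase, from 76.1 to 43.4 CPM (-0.81). The mitotic kinases PLK1 (0.47) and PLK4 (0.28), which regulate cell division and the centriole, rose instead.

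A broader list of activated genes shares 6 genes with the first (17.1% of its own length and 10.5% of the other). Of its 34 tested genes 20 fell and 8 rose, where 31.6% and 33.5% of all genes did, with a median of -0.11. The median turned to 0.06 on spike-in scaling (11 fell and 12 rose), where 2581 of all 15750 genes fell and 6831 rose. POLR1B, a subunit of RNA polymerase I, went from 136 to 80.7 CPM (-0.75) and RRS1, a ribosome assembly factor, from 75.8 to 50.2 CPM (-0.6). Against them CCND2, which encodes cyclin D2, went from 0.25 ± 0.0999 to 23.2 ± 1.47 CPM (6.59, SE 0.156), and PKM, a glycolytic enzyme, rose by 0.32.

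Of 12 tested genes that MYC is known to repress, 7 rose and 4 fell with SMARCB1 in DMSO, where 33.5% and 31.6% of all genes did, with a median of 0.59. On spike-in scaling 7 rose and 3 fell, with a median of 0.76, where 6831 of all 15750 genes rose and 2581 fell. NDRG2 went from 0.235 to 3.37 CPM (3.78) and CDKN2B, an inhibitor of CDK4 and CDK6, from 0.267 to 2.22 CPM (3.07). The falls included CEBPA, a differentiation factor, from 8.74 to 1.63 CPM (-2.47), and KLF2 (-1.12).

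With dBRD9-A in GFP cells few genes of these lists were called. In the first target list 5 of 57 genes rose and 4 fell, where 7.43% and 8.47% of all genes did, among them PLK4 (0.3) and PRMT3 (0.24) upwards and TMEM97 (-0.23) and HSPE1 (-0.14) downwards, the last pair turning to 0.13 and 0.22 on spike-in scaling. The broader list had 2 rises, UBTF (0.2) and RRS1 (0.16), and 3 falls, including PTMA (-0.19) and POLR1B (-0.1), which were 0.17 and 0.26 on spike-in scaling. Of the repressed genes 2 rose, KLF2 (0.61) and ITGA6 (0.18). Another 3 fell, led by the stress gene GADD45A (-0.62) and the collagen gene COL1A2 (-0.42). Of 18 alternative analyses, 12 lost the call of ITGA6, 5 that of POLR1B and 3 that of KLF2. The spike-in values of GADD45A and COL1A2 were -0.26 and -0.06, and COL1A2 was then not called (adjusted p = 0.431, edgeR). In SMARCB1 cells dBRD9-A gave 1 call in each of these lists, PLK4 higher (0.23) and PKM (-0.1) and COL1A2 (-0.22) lower. The call of RRS1 was lost without GFP dBRD9-A replicate 1 (adjusted p = 0.057, edgeR), and that of PKM without any 1 of the SMARCB1 DMSO replicates or SMARCB1 dBRD9-A replicate 3 (adjusted p = 0.0568 to 0.114, edgeR). PKM was also not called with a replicate block (adjusted p = 0.0644) or with only the groups compared (adjusted p = 0.059, edgeR), and PLK4 in SMARCB1 cells was 0.09 on spike-in scaling (adjusted p = 0.345, edgeR). On spike-in scaling dBRD9-A in GFP cells raised 56 of 57, 32 of 34 and 7 of 12 genes of the 3 lists. The same scaling called 11083 of all 15750 genes higher.

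Cofactors were mixed. Of 17 genes for proteins that MYC or the MXD proteins recruit, 5 rose and 7 fell with SMARCB1 in DMSO, near the 65.0% of all genes that were called, with a median of -0.06. On spike-in scaling 7 rose and 2 fell, with a median of 0.11, where 6831 of all 15750 genes rose and 2581 fell. SAP30 (0.62) and SIN3B (0.51), which belong to the SIN3 corepressor used by MXD proteins and MNT, rose, while KAT2A (-0.36), an acetyltransferase, and RUVBL1 (-0.31), an ATPase, fell. With dBRD9-A in GFP cells 1 changed, KAT2A, from 29.9 to 34.8 CPM (0.22).

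Of 15 genes whose products set the stability of MYC protein, 11 rose and 3 fell with SMARCB1 in DMSO (median 0.19), where 33.5% of all genes rose and 31.6% fell. The list mixes products that stabilise MYC with products that mark it for degradation, so its counts give no direction for MYC protein. The genes named were taken by size of change and do not stand for the list. On spike-in scaling 12 rose and 1 fell (median 0.36), where 6831 of all 15750 genes rose and 2581 fell. FBXW7, the ubiquitin ligase subunit that marks MYC for degradation, rose from 39.1 to 51.9 CPM (0.41), and HUWE1, another ligase, from 228 to 299 CPM (0.4). PIM1, a kinase that stabilises MYC, fell from 36 to 24 CPM (-0.59), and USP36, a deubiquitinase, fell by 0.33 on the log2 scale, or by 0.16 with no call on spike-in scaling (adjusted p = 0.0718, edgeR). With dBRD9-A in GFP cells 3 rose, including TRIM32 and PIM1 (0.17 each), and 2 fell, SET (-0.14) and SKP2 (-0.09), whose spike-in values were 0.22 and 0.27. SKP2 was not called without GFP DMSO replicate 2 or 3 or any 1 of the GFP dBRD9-A replicates (adjusted p = 0.0703 to 0.121, edgeR), with a replicate block (adjusted p = 0.0503) or without the low-count filter (adjusted p = 0.0573). MYC protein was not measured.

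Of 13 partners of MGA in its Polycomb-type complex, 6 rose and 5 fell with SMARCB1 in DMSO (median 0.07), where 65.0% of all genes were called. On spike-in scaling 8 rose and 0 fell (median 0.24), where 6831 of all 15750 genes rose and 2581 fell. RYBP (0.54) and RNF2 (0.34) rose, and L3MBTL2 (-0.3) and WDR5 (-0.22) fell. On spike-in scaling neither fall was called, with L3MBTL2 at -0.14 (adjusted p = 0.0696) and WDR5 at -0.05 (adjusted p = 0.491, edgeR). With dBRD9-A in GFP cells E2F6 alone was called, from 42.6 to 46.2 CPM (0.12, adjusted p = 0.0396, edgeR), and it was not called by DESeq2 or with a replicate block (adjusted p = 0.0625 and 0.0616), nor without replicate 2 or 3 of either GFP group (adjusted p = 0.0719 to 0.171, edgeR). The coding neighbours of MGA, TYRO3 and MAPKBP1, named after their values were seen, rose with dBRD9-A in GFP cells by 0.42 and 0.32 (adjusted p = 8.87e-08 and 9.26e-05, edgeR), where MGA moved by -0.02 with an interval from -0.13 to 0.1.

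**Figure D4:**
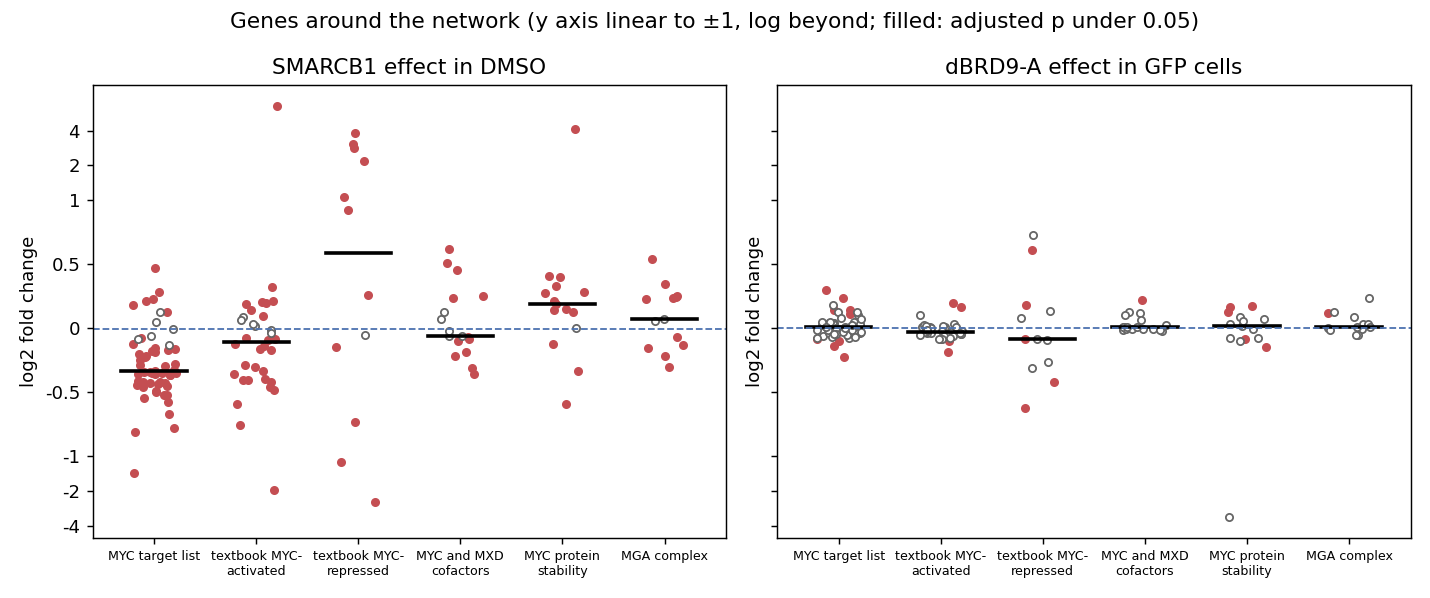
Log2 fold changes (y axis, linear to ±1 and log beyond) of the genes of 6 lists around the network on TMM-scaled libraries, with SMARCB1 in DMSO (left) and with dBRD9-A in GFP cells (right). Filled points have adjusted p under 0.05, black bars are list medians, and the dashed line is the median of all genes. The first target list has a median of -0.33 on the left and 0.01 on the right, against -0.17 and 0.37 on spike-in scaling. The medians of all genes on spike-in scaling are 0.17 and 0.36.

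The libraries hold RNAs of the ERCC spike-in set, synthetic transcripts added from outside, and the labels do not say whether they were added per cell or per mass of RNA. They made up 1.265% to 1.302% of counts in GFP cells with DMSO, 0.9634% to 1.06% with dBRD9-A, 1.085% to 1.21% in SMARCB1 cells with DMSO and 1.177% to 1.295% with dBRD9-A. Scaling to them put the median over all genes, on the log2 scale, at 0.17 for SMARCB1 in DMSO, 0.36 for dBRD9-A in GFP cells, -0.14 for dBRD9-A in SMARCB1 cells and -0.32 for SMARCB1 in dBRD9-A. The fall of MYC with SMARCB1 was -1.39 in DMSO and -1.75 in dBRD9-A on this scale, and MNT fell in both (-0.55 and -1.1). MXD4 with SMARCB1 in DMSO was 0.8, and in dBRD9-A its rise was gone.

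**Figure D5:**
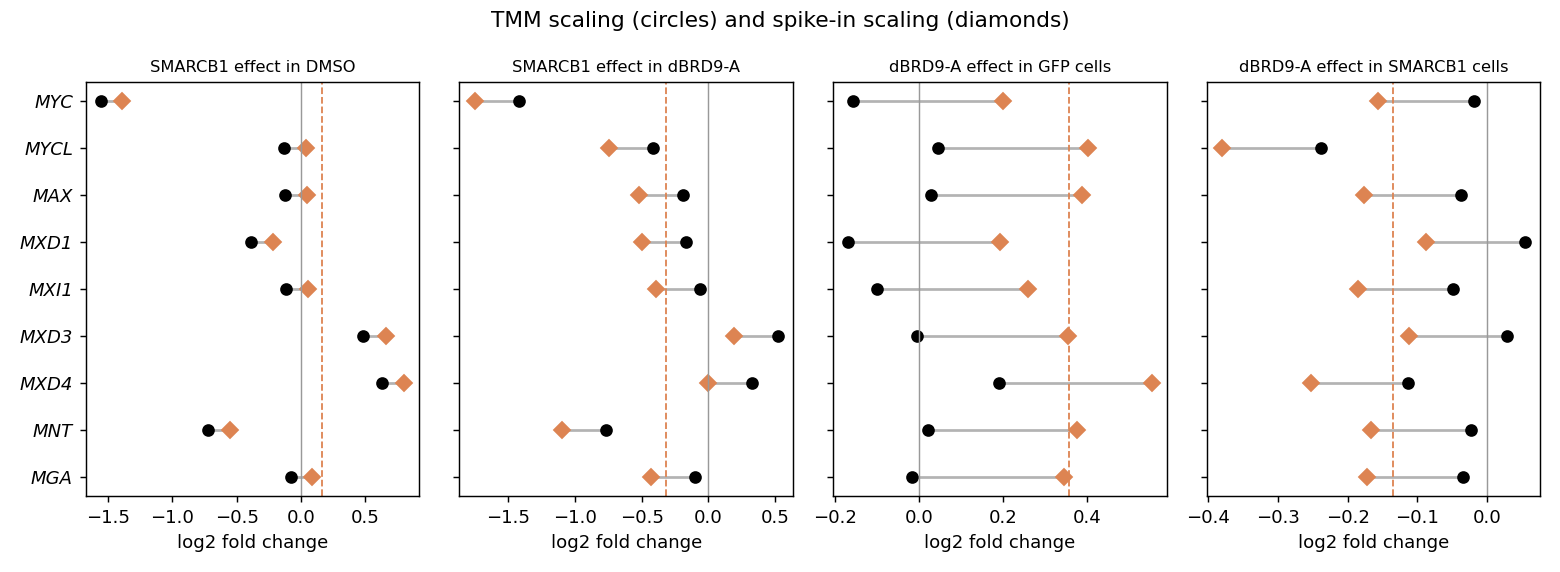
Log2 fold changes of the 9 tested genes in 4 comparisons (x axes differ) on TMM scaling (circles) and spike-in scaling (diamonds), with the dashed line at the median of all genes on spike-in scaling. MYC stays below 0 with SMARCB1 (-1.56 and -1.39 in DMSO) and changes side with dBRD9-A in GFP cells (-0.16 and 0.2).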

How the data were processed

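TruSeq Stranded mRNA libraries were made from RNA isolated by Qiagen RNeasy Plus, per the labels' protocols. The submitters' processing notes name STAR, RSEM 1.3.1, DESeq2 and GRCh37/hg19. The annotation and the use of strand are not given in the sources used here. Values in the 3 tables deposited by the authors are RSEM expected counts, in which reads common to several genes are divided between them, and 2.572% of values were not whole. The 6 libraries found in 2 tables had the same values in both.

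Expected counts were rounded. The 40 ERCC rows were kept out of library sizes. Genes passing filterByExpr of edgeR 4.0.16 in R 4.3.3 (minimum count 10) left 15750, and TMM factors were 0.9765 to 1.016. The quasi-likelihood fit used all 12 libraries and a term for each of the 4 groups, and p-values were adjusted over all genes tested by Benjamini-Hochberg, with calls at 0.05. The script was tested on simulated data. Symbols matched 51996 of the identifiers, and 1 gene of the lists (BOP1) and 1 marker (PECAM1) were unmatched. Exon lengths, neighbours and overlaps come from GENCODE release 29 on GRCh38, matched by identifier, so no coordinates of the files' build are given. The floor of 3 counts covers counting error only. The promoter stretches are from RefSeq.

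The members, the lists and the tests were chosen with earlier results of these data known. Apart from the members, SMARCB1, BRD9 and the MLX arm, the rule for named genes took, for each list and comparison, up to 2 rises and 2 falls with the largest fold change among called genes with a mean of at least 50 counts and replicates that did not overlap. For MYC and for MXD4 it took the 3 genes of most alike pattern. Alternatives were DESeq2 1.42.0 (Wald test), its size factors in edgeR, spike-in scaling, no low-count filter, only the groups compared, a replicate block and leaving out each library.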

Additional observations from a re-analysis of the deposited data

Results flagged for a closer look

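For 6 genes the response to dBRD9-A differed between GFP and SMARCB1 cells by the interaction term of edgeR's quasi-likelihood test. MXD4, the only network member among them, had a difference of -0.3 on the log2 scale (-0.304, adjusted p = 0.0193), with a response of 0.19 in GFP cells and -0.11 in SMARCB1 cells. Among genes of the lists, GADD45A had a difference of 0.55 (0.547, adjusted p = 0.000501), with means of 18.6 CPM (DMSO) and 12.1 CPM (dBRD9-A) in GFP cells against 35.3 and 33.5 CPM in SMARCB1 cells. UBTF had -0.21 (-0.208, adjusted p = 0.00315), 131 and 150 CPM against 124 and 123 CPM in the same order. COL1A2 had 0.2 (0.201, adjusted p = 0.00897), 842 and 630 CPM against 811 and 697 CPM. SET had 0.14 (0.143, adjusted p = 0.0176), and PRMT3 had -0.18 (-0.177, adjusted p = 0.0339). On spike-in scaling, which moves the median interaction of all genes to -0.49, the values were -0.81 for MXD4, 0.05 for GADD45A (no longer called), -0.7 for UBTF, -0.29 for COL1A2, -0.35 for SET and -0.67 for PRMT3. SET lost the call without replicate 1 or 3 of GFP DMSO or of SMARCB1 dBRD9-A, SMARCB1 DMSO replicate 2 or GFP dBRD9-A replicate 3 (adjusted p = 0.0506 to 0.0788), MXD4 without GFP DMSO replicate 1 or GFP dBRD9-A replicate 3, and PRMT3 without any 1 library other than SMARCB1 DMSO replicate 3 and SMARCB1 dBRD9-A replicates 2 and 3, and with a replicate block (adjusted p = 0.0614).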

How the results depend on the processing

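Of 801 recomputed values of the members, 763 kept their direction and side of the threshold or were uncalled in both (30 of these with another sign), 24 became called, 6 lost the call and 8 turned direction. The turns all came from spike-in scaling, which by construction moves all genes of a comparison together, and it also turned genes of the lists, which are not among the 801. Of the members, the turned values were 0.201 for MYC, 0.26 for MXI1, 0.354 for MXD3 and 0.345 for MGA with dBRD9-A in GFP cells, -0.006 for MXD4 with SMARCB1 in dBRD9-A, and -0.358 for MYC, -0.445 for MXI1 and -0.465 for MXD3 for the interaction. Of the list genes, they were 0.22 for HSPE1, 0.256 for POLR1B, 0.173 for PTMA, 0.215 for SET, 0.274 for SKP2 and 0.134 for TMEM97 with dBRD9-A in GFP cells, -0.111 for CBX3, -0.011 for GSK3B, -0.106 for MLX and -0.04 for ODC1 with SMARCB1 in dBRD9-A, and -0.294 for COL1A2 and -0.353 for SET for the interaction.

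Spike-in scaling called 4 members with SMARCB1 in DMSO (2 higher), 7 with SMARCB1 in dBRD9-A (0 higher), 8 with dBRD9-A in GFP cells, 2 with dBRD9-A in SMARCB1 cells and 8 for the interaction. Over all genes it called 6831 higher and 2581 lower with SMARCB1 in DMSO (5271 and 4974 on the main scaling), 2129 and 9046 with SMARCB1 in dBRD9-A (5191 and 4784), 11310 with dBRD9-A in GFP cells (11083 higher; 1170 higher and 1334 lower on the main scaling), 873 with dBRD9-A in SMARCB1 cells (39 higher; 107 higher and 197 lower) and 11270 for the interaction (66 higher; 338 higher and 260 lower). For dBRD9-A in SMARCB1 cells, 652 genes were called without the low-count filter (more genes tested) and 159 with only the groups compared (fewer libraries in the fit). Leaving out 1 library at a time gave 5 to 6 members for SMARCB1 in DMSO, 1 to 2 for dBRD9-A in GFP cells, 0 each time for dBRD9-A in SMARCB1 cells (169 to 422 of all genes), 6 to 7 for SMARCB1 in dBRD9-A and 0 to 1 for the interaction. The lower counts with dBRD9-A in GFP cells and for the interaction came without GFP DMSO replicate 1 or GFP dBRD9-A replicate 3.

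The sample titles number the libraries by replicate across the groups, and the labels do not state a pairing. Deviations of same-numbered libraries correlated by -0.0559 to 0.0611 over 18 pairs, and 3 of 12 libraries correlated best with their own number. These values show no strong pairing and cannot exclude a paired design. With a replicate block 5, 2, 0, 6 and 1 members were called in the 5 comparisons, as without it, and 10113, 2233, 254, 9812 and 529 of all genes. Replicates of a group differed beyond sampling noise (chi-square per degree of freedom 2.954 to 25.62). The largest values, 10.78 and 25.62, came from the pairs with replicate 2 of SMARCB1 cells with dBRD9-A. GFP cells with dBRD9-A had 2.954 to 3.519. The part of this spread in the few calls for dBRD9-A in SMARCB1 cells was not tested. With 3 libraries a group, the members with low counts (MYCL, MNT, MXD1, MXD3) had the widest intervals.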
